A study of Mus musculus with 2 samples.

Results

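The lysosome is the acidic compartment in which cells break down proteins, lipids and other cargo. The genes described here encode its main parts in macrophages: the proteases and other hydrolases that digest cargo, the proteins that export cholesterol, the proteins of its membrane, the proton pump that acidifies it, and the transcription factors that drive such genes. The genes were taken from a list of 37 symbols by matching symbols to the gene tables, and 36 of them had a row among the 31053 genes. Limp2, a further name of Scarb2, had no row of its own. Enzymes that break down sphingolipids were left out of the list.

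RNA was measured in single cells of the mouse colon by droplet sequencing of 3′ ends. The cells came from bone marrow chimeras, in which CD45.2 donor marrow had been engrafted into CD45.1 recipients. Donors of the first group lacked Il10rb, a gene of the IL-10 receptor (IL-10R KO, called KO). Donors of the second group also had no CerS2, a ceramide synthase with a preference for very long acyl chains (IL-10R/CerS2 DKO, called DKO). In the chimeras the deletions were in all cells derived from the donor marrow, while the tissue cells of the recipient were intact. Both groups thus lacked Il10rb, and no control that had it was analysed here. A flow sort on the myeloid proteins CD64, CD11c and CD11b had come before sequencing. Each genotype had 1 library and the labels give no age or sex, so genotype could not be told apart from mouse, sort or library, no test was made, and every interval below is a 95% interval of counting error only.

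The KO library had 2584 barcodes with 12549471 UMIs (molecular tags that count each molecule once), and the DKO library had 742 barcodes with 3414944 UMIs. After the cell filter, 2443 KO and 730 DKO cells were left, and the libraries shared 1 barcode. A gate on marker genes in each cell placed 1480 KO cells (60.6%) and 308 DKO cells (42.2%) in a monocyte/macrophage-like class, and none of the 36 genes was among the markers. The sort label was only partly borne out, since the same gate found 295 KO and 110 DKO T/NK-like cells, 230 and 168 B cell-like cells, 156 and 46 neutrophil-like cells, and 91 and 51 dendritic cell-like cells. The targeted gene Cers2 had 436 UMIs in the KO and 0 in the DKO monocyte/macrophage-like cells. Il10rb, the receptor gene deleted in both groups, still had 41 and 8 UMIs there, and tags at the 3′ end need not fall in the deleted part.

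Cargo that a macrophage takes up is digested by cathepsins and other hydrolases that work best at low pH. The pH is held low by a V-type ATPase, a proton pump with a membrane-embedded V0 part and a cytosolic V1 part. Heavily glycosylated proteins such as LAMP1 and LAMP2 line the membrane. The transcription factors TFEB, TFE3 and MITF bind short E-box-like elements near the start of many lysosomal genes.

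An element of this kind stands near a RefSeq start of several of the genes. The stretches below are shown because they carry it in genes on which the later comparisons turn or in which it is repeated. The letters CACGTG, a palindrome that reads the same on both strands, were searched in RefSeq promoter windows of GRCm38.p6 that run from 250 bases before to 50 bases after a gene's start. Of the 36 genes, 31 had a window, and 8 of those 31 (25.8%) held CACGTG, against 8.09% of 27025 genes with a window. The longer form TCACGTG, searched on both strands and always overlapping the first, was in 7 of the 31 (22.6%) and in 4.29% of all genes. The 8 genes were Ctsa, Ctsd, Ctsl, Lgmn, Lamp1, Mcoln1, Atp6v0d1 and Atp6v1a, and a match describes letters only, not bound sites. Each stretch lies before a RefSeq start and outside every exon of Gencode M21, is written 5′ to 3′ on the strand of its gene, and has CACGTG in capitals. The stretches of Lgmn and Atp6v1a lie inside these genes as Gencode M21 annotates them (chr12:102394084-102439813 and chr16:44085402-44139705), and not before them. Lamp1 (chr8:13159040-13159160, plus strand) had 4 copies within the 61 bases before its start. Ctsd (chr7:142388039-142388077, minus strand) had 2 copies before its start, of which the stretch shows the 1 at 245 bases. Lgmn (chr12:102439093-102439201, minus strand) had 1 copy 49 bases before 1 of its 2 starts. Mcoln1 (chr8:3500388-3500456, plus strand) had 2, of which the stretch shows the 1 at 71 bases. Atp6v1a (chr16:44139325-44139450, minus strand) had 1 copy 131 bases before its RefSeq start.
Lamp1: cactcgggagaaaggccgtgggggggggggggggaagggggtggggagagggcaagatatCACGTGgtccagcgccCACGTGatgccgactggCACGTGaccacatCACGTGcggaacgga
Ctsd: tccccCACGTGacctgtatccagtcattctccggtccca
Lgmn: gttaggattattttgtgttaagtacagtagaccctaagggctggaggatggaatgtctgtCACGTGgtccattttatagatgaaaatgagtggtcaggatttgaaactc
Mcoln1: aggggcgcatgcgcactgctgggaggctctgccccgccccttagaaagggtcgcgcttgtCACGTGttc
Atp6v1a: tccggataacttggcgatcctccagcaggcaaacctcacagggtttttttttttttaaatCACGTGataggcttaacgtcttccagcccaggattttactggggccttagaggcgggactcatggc

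Most of the genes were at their highest in the monocyte/macrophage-like cells. To compare cell classes, UMIs were summed over the cells of a class in each library and given as CPM (counts per 1e+06 UMIs of the sum). The 36 genes together made up 1.30% of UMIs in KO and 1.46% in DKO monocyte/macrophage-like cells. They made up 0.204% and 0.174% in T/NK-like cells and 0.281% and 0.321% in B cell-like cells. In dendritic cell-like cells they made up more, 1.67% and 1.66%, of which Cst3 alone was the larger part (11483 and 10173 CPM). The median over single cells did not show this in KO, with 11185 CPM in dendritic cell-like against 12030 CPM in monocyte/macrophage-like cells. In DKO these medians were 13511 and 13349 CPM. Of the 36, 24 in KO and 27 in DKO had their highest level in monocyte/macrophage-like cells, and 21 did in both libraries. Among these, the intervals overlapped with the next class for Ctsk, Man2b1, Cd63, Mcoln1, Atp6v1a and Mitf in KO. In DKO they did for Ctsc, Ctsh, Ctsk, Ctsl, Ctsz, Ctsd, Tpp1, Man2b1, Npc1, Scarb2, Laptm5, Mcoln1, Atp6v0d2, Tfeb and Tfe3. The level in monocyte/macrophage-like cells was at least 5-fold that of T/NK-like and B cell-like cells pooled for 16 genes in KO and 17 in DKO. Of the genes with at least 100 UMIs over the 5 classes, 23 of 34 in KO had their highest level in monocyte/macrophage-like cells, against 20.8% of all 7264 genes with as many UMIs. In DKO 23 of 30 did, against 23.8% of 3991 genes, and 19 of 30 did in both libraries, against 15.6% of 3989 genes. On the same minimum, 16 of 34 in KO and 16 of 30 in DKO were at least 5-fold over the pooled lymphoid cells, against 10.4% and 12% of all genes. Among single KO cells of the monocyte/macrophage-like class the summed level ran from 9688 CPM at the lower quartile to 15213 CPM at the upper quartile, and in DKO from 10890 to 17405 CPM.

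**Figure D1:**
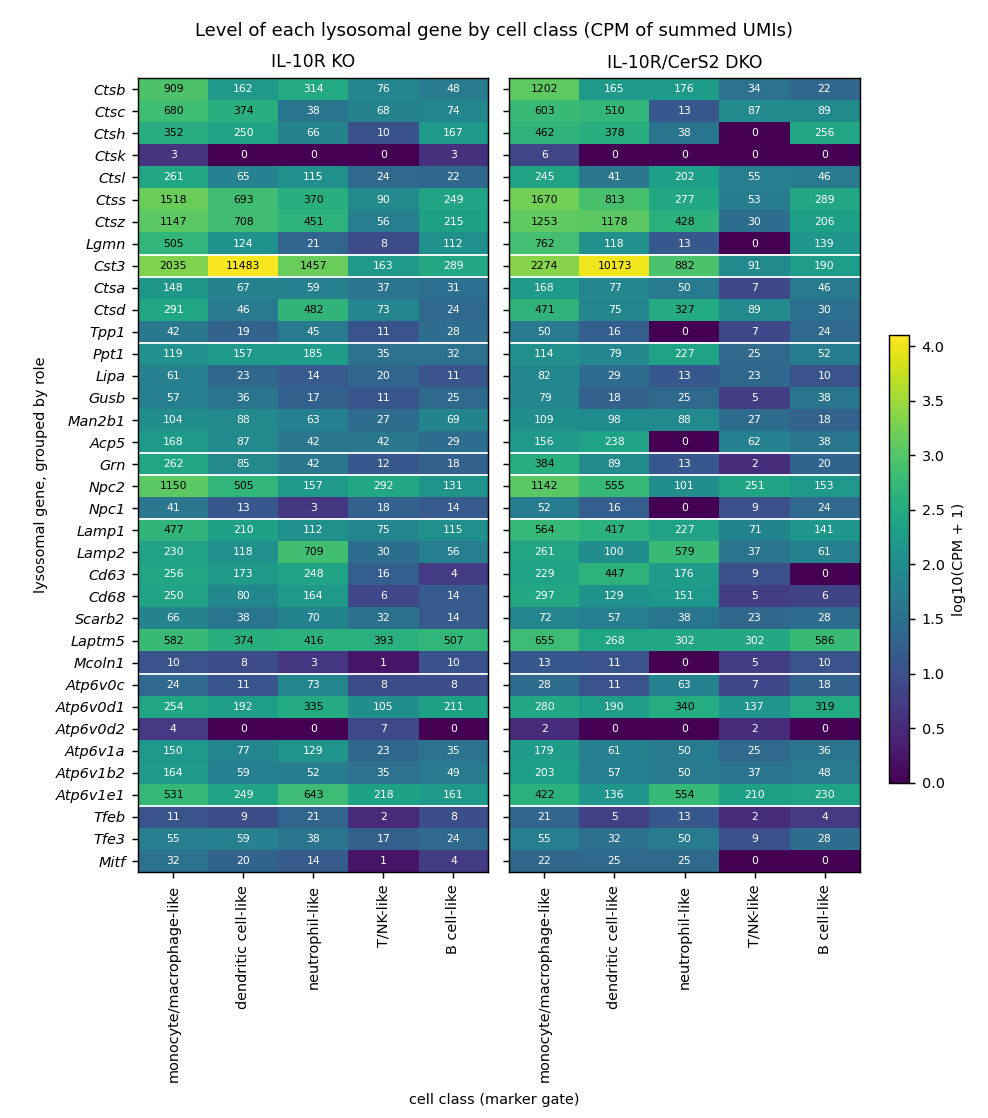
Level of 36 lysosomal genes (rows, grouped by role) in 5 cell classes (columns) of the KO library (left) and the DKO library (right). Numbers are CPM of UMIs summed over cells, and colour is log10(CPM + 1). The monocyte/macrophage-like column is brightest for most genes, while Cst3 reaches 11483 CPM in KO dendritic cell-like cells.

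Among the cysteine proteases, Ctss, the cathepsin that trims the invariant chain in antigen presentation, had 1518 CPM in KO against 1670 CPM in DKO monocyte/macrophage-like cells. Its level in dendritic cell-like cells was 693 and 813 CPM, and in T/NK-like cells it was 90.4 and 52.6 CPM. Ctsz had 1147 and 1253 CPM in monocyte/macrophage-like cells and 708 and 1178 CPM in dendritic cell-like cells. The intervals of these classes overlapped in DKO for Ctsz, and did not overlap in either library for Ctss. Ctsb, an abundant cathepsin, had 909 and 1202 CPM, and was found in 89.7% of the KO and 91.9% of the DKO cells of the class.

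The cathepsin inhibitor cystatin C, encoded by Cst3, stood apart from the proteases it blocks. In dendritic cell-like cells Cst3 had 11483 CPM (KO) and 10173 CPM (DKO), while in monocyte/macrophage-like cells it had 2035 and 2274 CPM. It was the only one of the 36 genes with its highest level in dendritic cell-like cells in both libraries.

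Neutrophil-like cells held the highest level of 9 genes in KO and 6 in DKO, with 5 in both: Ppt1, Lamp2, Atp6v0c, Atp6v0d1 and Atp6v1e1. On the minimum of 100 UMIs, genes highest in neutrophil-like cells numbered 9 of 34 in KO, 4 of 30 in DKO and 4 of 30 in both, against 16.4%, 17.4% and 13.4% of all genes. Lamp2, a membrane protein of the lysosome, had 709 CPM (KO) and 579 CPM (DKO) in neutrophil-like cells, and 230 and 261 CPM in monocyte/macrophage-like cells. Of these 5 genes, Lamp2 alone had intervals that did not overlap with the next class in both libraries. Of these, Atp6v0c, Atp6v0d1 and Atp6v1e1 encode subunits of the proton pump.

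Some genes were far from restricted to myeloid cells. Laptm5, a lysosomal membrane protein of blood cells, had 582 CPM in KO against 655 CPM in DKO monocyte/macrophage-like cells. In B cell-like cells it had 507 and 586 CPM, and in T/NK-like cells 393 and 302 CPM. At the other end, Cd68, a membrane glycoprotein used as a macrophage marker, had 250 and 297 CPM against 8.93 and 5.36 CPM in the lymphoid classes together. Grn, which encodes the lysosomal protein progranulin, had 262 and 384 CPM against 14.1 and 11.8 CPM.

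A few genes were near the limit of detection. To compare shares of cells at 1 depth, each cell was thinned to 2000 UMIs and shallower cells were left out. Ctsk, a collagen-degrading cathepsin known from osteoclasts, was then found in 8 of 1390 KO (0.576%) and 3 of 287 DKO (1.05%) monocyte/macrophage-like cells. Before thinning it was in 24 of 1480 and 8 of 308 cells, with a median of 5562 UMIs per cell in KO and 5441 in DKO (3110 and 2816 for lymphoid cells). The thinning left out 90 KO and 21 DKO monocyte/macrophage-like and 64 and 33 lymphoid cells. In T/NK-like and B cell-like cells pooled, Ctsk was found in 1 of 461 KO (0.217%) and 0 of 245 DKO cells after thinning, where the Clopper-Pearson upper limit was 1.49%. Atp6v0d2, an isoform of a V0 subunit, was found in 0.360% and 0.348% of monocyte/macrophage-like and 0.434% of KO lymphoid cells. Mcoln1, a calcium channel of the lysosome, was found in 2.52% and 1.74% of monocyte/macrophage-like and 1.08% and 1.63% of lymphoid cells, with overlapping intervals. Free RNA was not corrected for, and its part in these shares was not tested.

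The monocyte/macrophage-like cells were next ordered along maturation, since colon macrophages are continually renewed from blood monocytes. Cells with at least 5 UMIs of Ly6c2, Plac8, Vcan and Chil3 per 10000 and under 10 of C1qa, C1qb and C1qc were called the monocyte stage. Cells with the reverse pattern were called the macrophage stage, and cells past both cuts the intermediate stage. None of these 7 genes is among the 36. The KO library had 701 cells in the monocyte, 276 in the intermediate and 416 in the macrophage stage, and the DKO library had 130, 34 and 116, while 87 and 28 cells were low in both. A stage is a range along these scores and not a cell type, and 176 KO and 19 DKO cells lay within 2-fold of the C1q cut and 177 and 44 within 2-fold of the monocyte cut. Cells of 1 library are not replicates, so the libraries are set side by side.

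The summed levels of the proteases and of the other hydrolases were higher in the macrophage than in the monocyte stage of both libraries. The cysteine proteases together had 4233 CPM in the monocyte and 7116 CPM in the macrophage stage of KO, and 4907 and 7638 CPM in DKO. The 3 other proteases together had 337 and 679 CPM in KO and 462 and 845 CPM in DKO, and the 5 other hydrolases had 309 and 861 CPM in KO and 344 and 694 CPM in DKO. The 36 genes together had 11356 CPM in the KO monocyte stage and 15720 CPM in the KO macrophage stage. In DKO they had 12638 and 16758 CPM. The 6 pump genes together had 1123 CPM in the KO monocyte and 1120 CPM in the KO macrophage stage, and 1100 and 1209 CPM in DKO. Atp6v1e1 held 2015 of the 4077 pump UMIs in the KO monocyte stage.

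A gene was counted here and in the comparisons below where it had at least 100 UMIs over both sums compared, and was called where it differed by at least 1.5-fold. In KO, 16 of 32 genes counted were higher in the macrophage stage, against 11.9% of all 5501 genes counted, and 0 were lower, against 13.2% of all genes. In DKO, 8 of 26 were higher, against 15.3% of all 1993 genes counted, and 0 were lower, against 14.7% of all genes. The median log2 ratio of the genes was 0.60 in KO and 0.31 in DKO, against −0.04 and −0.07 over all genes counted. Of the 26 genes counted in both libraries, 12 were past 1.5-fold in KO, 8 in DKO and 7 in both, while 8.48% of all genes counted in both were higher in both. The 7 were Cd63, Acp5, Lgmn, Ctsb, Ctsd, Grn and Ctsl. By role, 5 of 7 cysteine proteases counted, 3 of 3 other proteases and 4 of 5 other hydrolases were past 1.5-fold in KO. In DKO these counts were 3 of 7, 1 of 2 and 1 of 4.

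**Figure D2:**
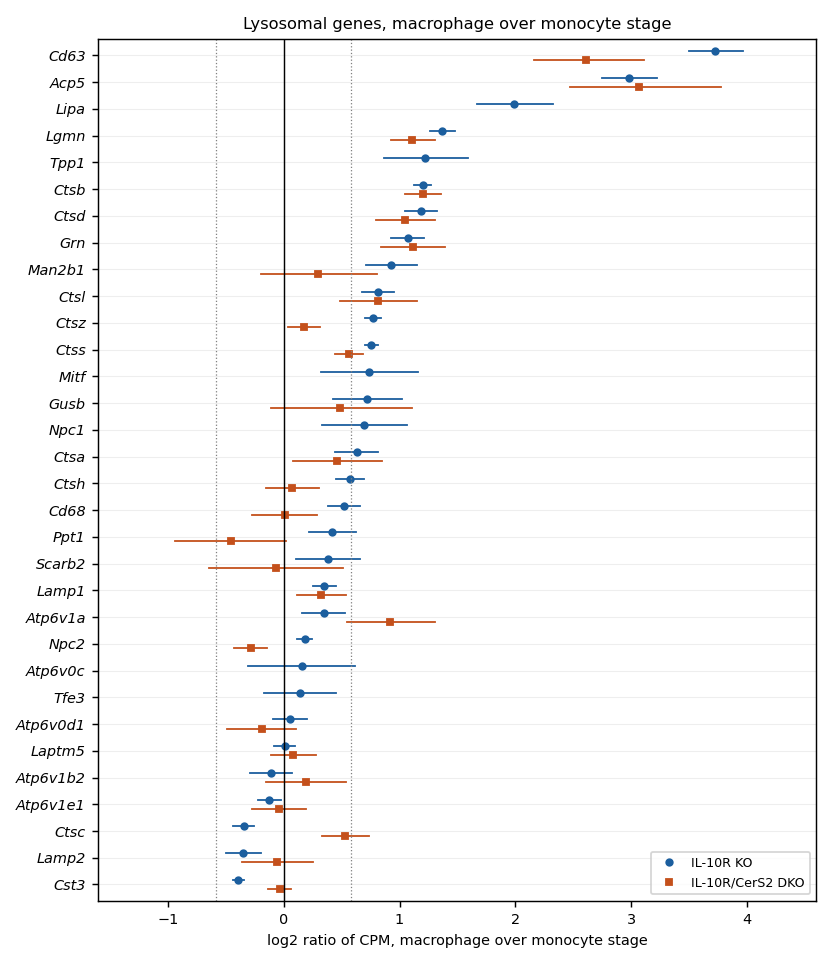
log2 ratio of CPM in the macrophage stage over the monocyte stage (x axis) for each lysosomal gene with at least 100 UMIs (y axis), in KO (circles) and DKO (squares). Lines are 95% counting intervals and dotted lines mark 1.5-fold. Cd63 and Acp5 lie farthest to the right in both libraries, and the proton pump genes lie within 1.5-fold except Atp6v1a in DKO at 0.92.

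Cd63, a tetraspanin of late endosomes and lysosomes, had the highest ratio in KO, and Acp5 had it in DKO. Cd63 had 46.0 CPM in the KO monocyte, 112 CPM in the intermediate and 610 CPM in the macrophage stage, a log2 ratio of 3.73 (interval 3.50 to 3.97). In DKO it had 67.1, 155 and 413 CPM, a log2 ratio of 2.61 (interval 2.16 to 3.11). The stages thus kept the same order in both libraries. Acp5, the tartrate-resistant acid phosphatase, had 47.9, 75.8 and 379 CPM in KO and 35.1, 75.2 and 299 CPM in DKO, with log2 ratios of 2.98 (interval 2.75 to 3.22) and 3.06 (interval 2.47 to 3.78). Neither gene was spread evenly: in the macrophage stage Acp5 was found in 54.1% of KO and 35.3% of DKO cells, and Cd63 in 65.4% and 54.3%. A single DKO cell held 49 of the 272 Acp5 UMIs in the class (18.0%) and 1 DKO cell held 52 of the 398 Cd63 UMIs (13.1%), and this was the same cell. With the cell richest in a gene left out of each stage, an alternative chosen after the data were seen, the DKO log2 ratios were 3.15 for Acp5 and 2.77 for Cd63.

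Among the cysteine proteases, Lgmn, an asparagine-specific endopeptidase that also processes other cathepsins, had 310 CPM in the KO monocyte and 802 CPM in the KO macrophage stage, and 501 and 1085 CPM in DKO. Its log2 ratios were 1.37 (interval 1.27 to 1.48) and 1.11 (interval 0.93 to 1.30). Ctsb had 620 and 1425 CPM in KO and 742 and 1706 CPM in DKO, with log2 ratios of 1.20 (interval 1.13 to 1.28) and 1.20 (interval 1.05 to 1.35). Ctss and Ctsz had log2 ratios of 0.76 and 0.77 in KO, and of 0.56 and 0.18 in DKO, where neither reached 1.5-fold.

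Ctsc, which activates the serine proteases of granules, went opposite ways in the libraries. It had 733 CPM in the monocyte and 577 CPM in the macrophage stage in KO, a log2 ratio of −0.35 (interval −0.44 to −0.26). In DKO it had 501 and 725 CPM, a log2 ratio of 0.53 (interval 0.33 to 0.74). The KO ratio was −0.19 once cells with an Arg1 UMI were left out, as described further on. Cst3 had 2345 and 1788 CPM in KO, a log2 ratio of −0.39, and 2330 and 2273 CPM in DKO, where the log2 ratio was −0.04 and its interval held 0.

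Of the remaining proteases and hydrolases, Ctsd, the aspartic cathepsin, had 188 and 427 CPM in KO and 279 and 577 CPM in DKO. Lipa, the acid lipase that splits cholesteryl esters and triglycerides, had 28.1 and 112 CPM in KO, a log2 ratio of 1.99 (interval 1.67 to 2.33), and 30.5 and 106 CPM in DKO, where it had under 100 UMIs. Tpp1, a tripeptidyl peptidase, had 27.8 and 64.9 CPM in KO and 36.6 and 65.8 CPM in DKO, also on under 100 UMIs in DKO. All 3 were higher in the macrophage stage of each library.

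The membrane genes counted other than Cd63 stayed within 1.5-fold. Lamp1 had 440 and 562 CPM in KO and 500 and 627 CPM in DKO. Lamp2 had 262 and 206 CPM in KO and 264 and 254 CPM in DKO, and Laptm5 had 581 and 584 CPM in KO and 614 and 651 CPM in DKO. Npc2, which hands cholesterol to the membrane protein NPC1, had log2 ratios of 0.18 in KO and −0.29 in DKO. Of the pump genes, Atp6v1a, the catalytic V1 subunit, was past 1.5-fold in DKO, with 131 and 248 CPM, but not in KO, with 138 and 176 CPM.

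The list of other lysosomal genes had 65 members with a row. In KO, 15 of 43 counted were higher in the macrophage stage and 0 were lower, with a median log2 ratio of 0.32. In DKO, 8 of 29 were higher and 1 was lower, with a median of 0.23. Atp6v1c1, Atp6v1d and Atp6v1h were past 1.5-fold in both libraries, and they also encode V1 subunits of the pump. They were picked out after their values had been seen. Atp6v1c1 had log2 ratios of 0.77 in KO and 1.18 in DKO.

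DKO was then compared with KO within the monocyte/macrophage-like class, to ask how the lysosomal genes differ once CerS2 is lost in cells that lack Il10rb. Differences were small. On total counts most ratios of these genes lay above 0, and so did the median over all genes. Ctsk and Atp6v0d2 had too few UMIs to be counted. Of 34 genes counted, 3 were at least 1.5-fold higher in DKO, against 6.02% of all 6693 genes counted, and 0 were at least 1.5-fold lower, against 5.86% of all genes. The median log2 ratio was 0.18 for these genes and 0.07 for all genes counted, and 25 of the 34 were above 0. The share of all genes above 0 was not taken. With TMM factors in place of total counts the median was 0.06 for the 34 genes and −0.05 for all genes, 1 gene (Tfeb) was higher and 1 (Mitf) lower, and over all genes 3.27% were higher and 8.10% lower. The change of scale is a shift of 0.12 on the log2 scale.

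**Figure D3:**
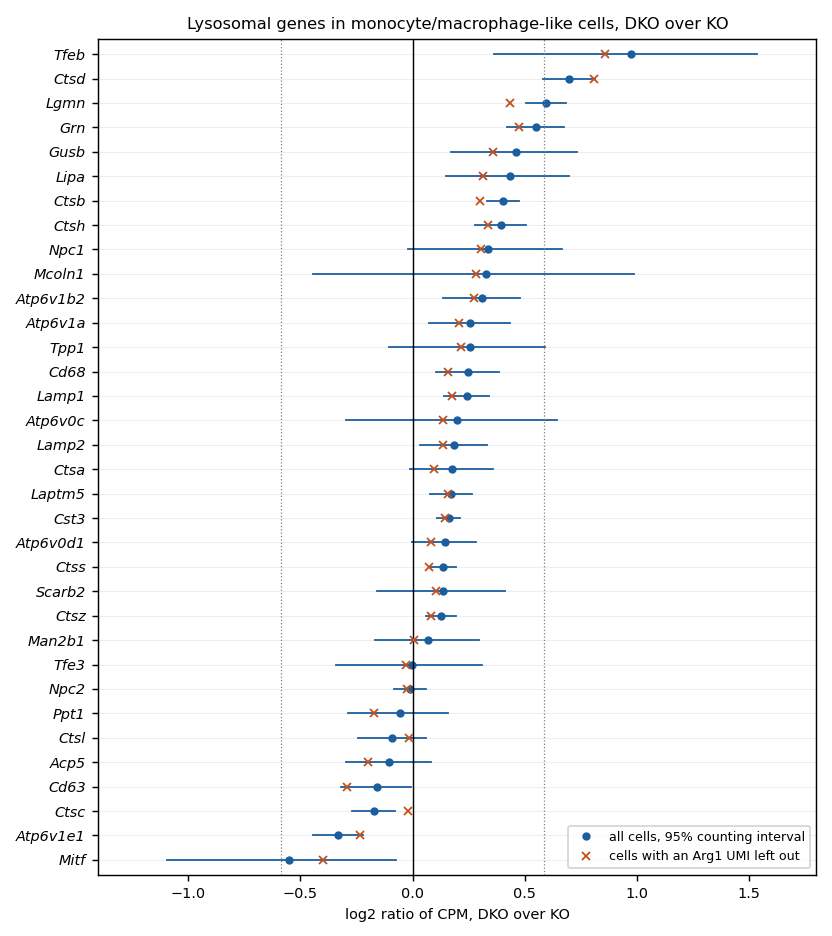
log2 ratio of CPM in DKO over KO (x axis) in monocyte/macrophage-like cells for the 34 lysosomal genes counted (y axis, sorted). Circles with lines are all cells with 95% counting intervals, crosses leave out cells with an Arg1 UMI, and dotted lines mark 1.5-fold. Tfeb, Ctsd and Lgmn lie right of the 1.5-fold line with all cells, and Lgmn lies left of it without the cells with an Arg1 UMI.

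Ctsd had 291 CPM in KO against 471 CPM in DKO, a log2 ratio of 0.70 (interval 0.58 to 0.81). Lgmn had 505 and 762 CPM, a log2 ratio of 0.59 (interval 0.50 to 0.68), just past the 1.5-fold line. The macrophage stage held 28.1% of the KO and 37.7% of the DKO cells of the class. With stages weighted as in KO, the log2 ratio was 0.52 for Lgmn, under 1.5-fold, and 0.66 for Ctsd. Tfeb, the transcription factor that drives lysosomal genes, had 10.6 and 20.7 CPM, a log2 ratio of 0.98 (interval 0.36 to 1.53). This rests on 91 and 36 UMIs, and 1 DKO cell held 5 of the 36. Without the cell with the most Tfeb UMIs in each library the log2 ratio was 0.79. After thinning, Tfeb was found in 2.01% of KO and 2.79% of DKO cells, with overlapping intervals, against 0.868% and 0.408% in lymphoid cells.

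Several genes lay between 0 and 1.5-fold with intervals above 0. Grn had 262 and 384 CPM (log2 ratio 0.55, interval 0.42 to 0.67). Gusb, a glucuronidase, had 57.3 and 78.7 CPM and a log2 ratio of 0.46, and Lipa had 60.6 and 81.5 CPM and a log2 ratio of 0.43. Ctsb and Ctsh had log2 ratios of 0.40 and 0.39. All of these were higher in DKO by more than counting error, which does not include the spread between mice.

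Lower levels in DKO were fewer. Mitf had 32.3 CPM in KO against 21.8 CPM in DKO (log2 ratio −0.55, interval −1.09 to −0.07), on 38 UMIs in DKO. Atp6v1e1, a subunit of the stalk of the pump, had 531 and 422 CPM, a log2 ratio of −0.33 (interval −0.45 to −0.22). Ctsc had 680 and 603 CPM, a log2 ratio of −0.17 (interval −0.27 to −0.08). The other pump subunits counted lay above 0, with 150 and 179 CPM for Atp6v1a and 164 and 203 CPM for Atp6v1b2. Cd63 had 256 and 229 CPM, a log2 ratio of −0.16 (interval −0.32 to −0.01), which was −0.34 without the cell with the most Cd63 UMIs in each library. With stages weighted as in KO, the log2 ratios of Cd63 and Acp5 were both −0.35, and that of Mitf was −0.63, past 1.5-fold. Ctss, Ctsz, Cst3, Lamp1, Lamp2, Cd68 and Laptm5 lay between 0.13 and 0.25 with intervals above 0. TMM factors shift every ratio by −0.12, so the smallest of these depend on the choice of scale. The intervals of Ctsl, Ctsa, Tpp1, Ppt1, Man2b1, Acp5, Npc2, Npc1, Scarb2, Mcoln1, Atp6v0c, Atp6v0d1 and Tfe3 held 0. Summed, the 6 pump genes had 1127 CPM in KO against 1114 CPM in DKO.

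Of 48 other lysosomal genes counted in the same comparison, 3 were at least 1.5-fold higher in DKO and 0 lower, with a median log2 ratio of 0.10. The 3 highest ratios were those of Ids (0.77), Vps11 (0.64) and Atp6v1h (0.61). Naglu (−0.40) and Tcirg1 (−0.26) were among the 3 lowest.

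Within the stages the pattern was uneven. In the monocyte stage 3 of 31 genes were higher in DKO, against 5.52% of 4401 genes, and 0 were lower, against 8.09%. The 3 were Lgmn (310 and 501 CPM, log2 ratio 0.69), Ctsh (290 and 453 CPM, log2 ratio 0.65) and Npc1 (31.7 and 47.2 CPM, with an interval that held 0). With the cell richest in each gene left out of each library, 2 were higher (Lgmn and Ctsh), against 3% of all genes treated in the same way, and Acp5 was lower at −0.73, against 11.7%. Ctsc had 733 CPM in KO against 501 CPM in DKO in this stage, a log2 ratio of −0.55 (interval −0.72 to −0.38).

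In the intermediate stage 6 of 27 genes were higher in DKO, against 7.86% of 2556 genes, and 1 was lower, against 8.92%, on 34 DKO cells. The 6 were Lipa (43.8 and 160 CPM), Ctsd (224 and 625 CPM), Gusb, Ctsb, Grn and Ctsh, and the lower gene was Atp6v1e1 (508 and 291 CPM). Single cells weighed heavily here, since 1 DKO cell held 87 of the 283 Ctsb UMIs and 41 of the 133 Ctsd UMIs. With the cell richest in each gene left out of each library, the log2 ratio of Ctsb was 0.37 in place of 0.81, that of Ctsh 0.43 in place of 0.61 and that of Ctsd 1.11 in place of 1.48. Then 4 genes were higher (Lipa, Ctsd, Gusb and Grn), against 3.91% of all genes, and 1 was lower, against 17.4%.

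In the macrophage stage 0 of 31 genes were higher in DKO, against 8.11% of 3960 genes, and 1 was lower, against 6.29%. The lower gene was Ppt1, a thioesterase, with 145 and 93.2 CPM and a log2 ratio of −0.63 (interval −1.03 to −0.27). Cd63 had 610 CPM in KO against 413 CPM in DKO in this stage, a log2 ratio of −0.56 (interval −0.75 to −0.39). With the cell richest in each gene left out of each library, Cd63 was at −0.77 and Acp5 at −0.60 in place of −0.34. This made 3 genes lower, against 8.74% of all genes, and 0 higher, against 5.83%. Grn had 376 and 518 CPM, Ctsd 427 and 577 CPM, and Lgmn 802 and 1085 CPM, with log2 ratios of 0.46, 0.44 and 0.44. Ctsc, lower in DKO in the monocyte stage, had 577 and 725 CPM here, a log2 ratio of 0.33 (interval 0.18 to 0.47).

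The libraries differed in the cells with a UMI of Arg1, the arginine-degrading enzyme, of which there were 169 of 1480 in KO (11.4%) and 1 of 308 in DKO (0.325%). Within KO, these cells were set against the other cells of the class. More lysosomal genes were lower than higher in them, and the same held over all genes. Of 32 genes counted, 13 were at least 1.5-fold lower in Arg1-positive cells, against 22.6% of 6217 genes, and 4 were higher, against 10.7%. The median log2 ratio was −0.45, against −0.18 over all genes. The comparison is within 1 library, and the Arg1-positive cells had a median of 6276 UMIs against 5441 in the rest. The split by Arg1 and the split by Mrc1 below were chosen with values of these data known.

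Lgmn had 118 CPM in Arg1-positive and 563 CPM in Arg1-negative KO cells, a log2 ratio of −2.25. Cd63 had 84.4 and 281 CPM, a log2 ratio of −1.73, and Ctsb had 451 and 979 CPM, a log2 ratio of −1.11. All 5 of the hydrolases that are not proteases were lower over the whole class, with Lipa at 24.9 and 66.0 CPM and Ppt1 at 50.7 and 129 CPM. The 4 higher genes were Ctsc (1129 and 612 CPM, log2 ratio 0.88), Mitf (52.4 and 29.2 CPM, 0.85), Ctsd (427 and 270 CPM, 0.66) and Atp6v1e1 (769 and 495 CPM, 0.64).

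The Arg1-positive cells had another mix of stages, with 58.0% in the monocyte and 10.7% in the macrophage stage, against 46.0% and 30.4% of the rest. Within the monocyte stage alone, 98 cells with Arg1 were set against 603 without. Of 30 genes counted, 11 were lower, against 27.1% of 3997 genes, and 3 were higher, against 11.2%. Lgmn still had 76.0 against 358 CPM (log2 ratio −2.22), Ctsc 1218 against 634 CPM (0.94) and Ctsd 357 against 153 CPM (1.22). Cd63 had 43.7 against 46.5 CPM there, with an interval that held 0. Of the 5 hydrolases that are not proteases, 2 were past 1.5-fold lower there, Ppt1 (log2 ratio −1.70) and Lipa (−1.39), while Acp5 was at 0.26 with an interval that held 0. Lamp2 (158 against 284 CPM), Cd68 (123 against 235 CPM) and Lamp1 (275 against 474 CPM) were also lower.

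Leaving cells with an Arg1 UMI out of both libraries moved the ratios of DKO over KO of these genes. The log2 ratio of Lgmn was then 0.43 and under 1.5-fold, that of Ctsd 0.81, that of Ctsc −0.02, that of Atp6v1e1 −0.23 and that of Mitf −0.40. The number of genes at least 1.5-fold higher was 2 and the median log2 ratio 0.14. With these cells left out, Ctsd was still past 1.5-fold higher in DKO, while the ratio of Ctsc was −0.02 in place of −0.17. The part of the Arg1-positive cells in these differences was not tested.

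**Figure D4:**
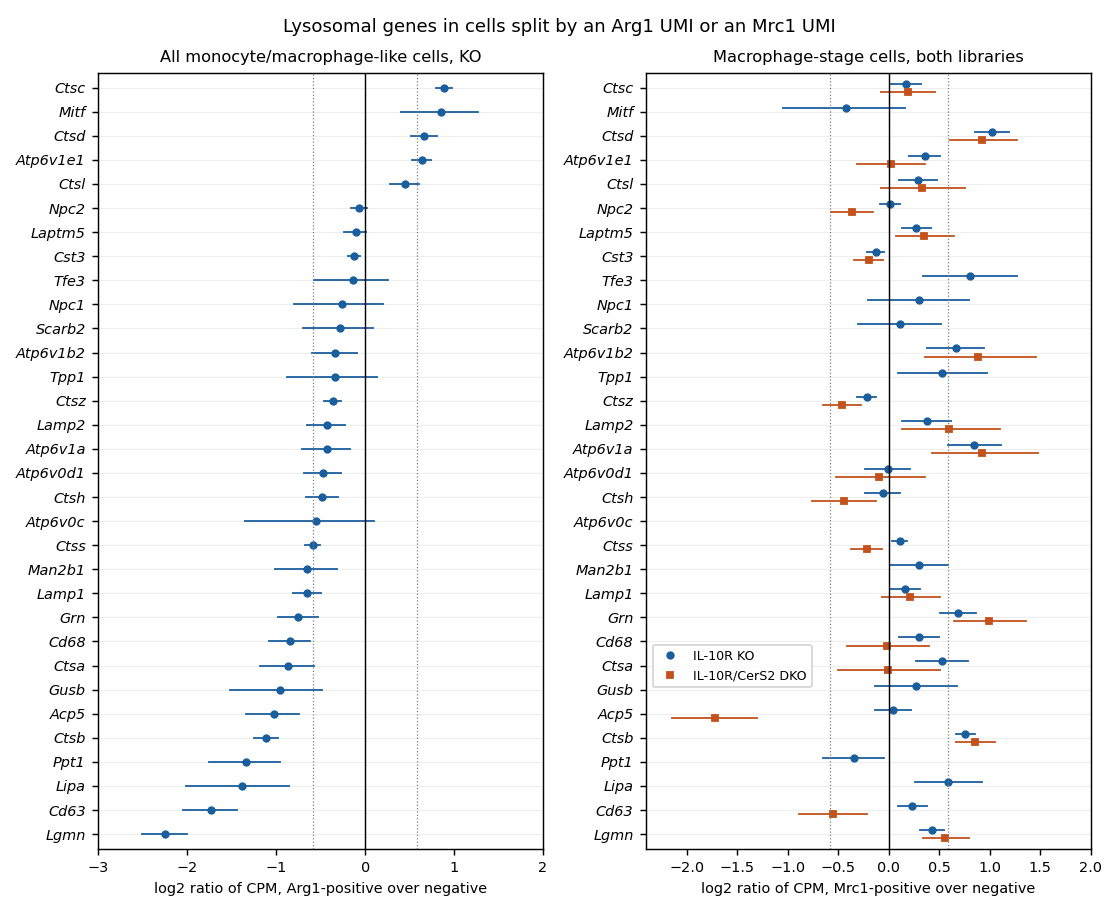
log2 ratio of CPM (x axes) for lysosomal genes (y axes, the same order in both panels) with 95% counting intervals. Left, KO monocyte/macrophage-like cells with over cells without an Arg1 UMI. Right, macrophage-stage cells with over cells without an Mrc1 UMI in KO (circles) and DKO (squares), where Ctsd, Ctsb, Grn, Atp6v1a and Atp6v1b2 lie right of the dotted 1.5-fold line in both libraries.

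Macrophage-stage cells were also split by a UMI of Mrc1, which encodes the mannose receptor CD206 of resident tissue macrophages. Mrc1 was found in 162 of 416 KO cells of this stage (38.9%) and 77 of 116 DKO cells (66.4%), although DKO cells with Mrc1 were the shallower, at a median of 5506 UMIs against 6686 in KO. In KO, 7 of 31 genes were at least 1.5-fold higher in Mrc1-positive cells, against 11.2% of 3379 genes, and 0 were lower, against 4.02%. In DKO, 6 of 22 were higher, against 15.9% of 1110 genes, and 1 was lower, against 4.77%.

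In both libraries 5 genes were higher: Ctsb, Ctsd, Grn, Atp6v1a and Atp6v1b2. These were 5 of the 22 counted in both, while 7.30% of the 1110 genes counted in both were higher in both. Ctsd had 617 CPM in Mrc1-positive and 304 CPM in Mrc1-negative cells of KO, and 699 and 366 CPM in DKO, with log2 ratios of 1.02 and 0.93. Grn had 489 and 304 CPM in KO and 634 and 318 CPM in DKO, and Ctsb had 1895 and 1120 CPM in KO and 2042 and 1126 CPM in DKO. The pump subunits Atp6v1a and Atp6v1b2 had log2 ratios of 0.85 and 0.66 in KO and of 0.93 and 0.88 in DKO. The 2 genes with the widest range between stages did not follow: Cd63 had 672 and 571 CPM in KO and 353 and 516 CPM in DKO, and Acp5 had 385 and 374 CPM in KO and 162 and 535 CPM in DKO. Without the DKO cell that held 49 of its UMIs, the DKO log2 ratio of Acp5 was −1.22 in place of −1.72, and that of Cd63, without the cell that held 52 of its UMIs, was 0.03 in place of −0.55.

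Set against KO within each side of the split, DKO levels of Ctsd and Ctsb differed little. In Mrc1-positive cells the log2 ratio of DKO over KO was 0.18 for Ctsd and 0.11 for Ctsb, and in Mrc1-negative cells it was 0.28 and 0.01, and all 4 intervals held 0. Lgmn had 950 CPM in KO against 1230 CPM in DKO Mrc1-positive cells, a log2 ratio of 0.37 (interval 0.22 to 0.52). Acp5 and Cd63 were at least 1.5-fold lower in DKO in the Mrc1-positive cells, with log2 ratios of −1.24 (interval −1.62 to −0.89) and −0.92 (interval −1.18 to −0.68). In the Mrc1-negative cells they had log2 ratios of 0.52 and −0.14, and of 0.13 and −0.67 with the cell richest in each gene left out of each library. With all Mrc1-negative cells, the genes past 1.5-fold were Ppt1, lower in DKO at −0.68 (interval −1.35 to −0.12), and Tpp1, higher at 0.66 with an interval that held 0. Shares over all genes were not taken for DKO against KO within this split.

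In dendritic cell-like cells Acp5 had 86.6 CPM in KO against 238 CPM in DKO, Cd63 had 173 against 447 CPM and Lamp1 had 210 against 417 CPM. Marker genes of monocytes and macrophages moved with them: all 8 were found in these cells in both libraries, and their summed level was 1944 CPM in KO against 6604 CPM in DKO, with their part in these differences not tested. In 71 of the 91 KO and 41 of the 51 DKO cells, dendritic cell markers led those of the next class by at most 1, tied or were fewer. The median cell of this class held 2 dendritic cell markers in each library, against 2 monocyte/macrophage markers in KO and 3 in DKO. In T/NK-like cells Ctsb had 76.3 CPM in KO against 34.3 CPM in DKO, and Ctss 90.4 and 52.6 CPM. Cst3 had 163 and 91.5 CPM in these cells and 289 and 190 CPM in B cell-like cells. The 8 monocyte/macrophage markers summed to 163 CPM in KO against 6.86 CPM in DKO T/NK-like cells, with 1 and 6 of them at 0, and to 168 and 28.3 CPM in B cell-like cells, with 0 and 5 at 0. Their part in these differences was not tested.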

How the data were processed

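The 2 deposited matrices hold unnormalized counts of UMIs, 1 value for each gene in each barcode. The submitters' processing notes name Cell Ranger 6.0.1 and Seurat 4.3.0, and the build was mm10. The filter followed the methods of the authors (300 to 5000 genes detected, mitochondrial share up to 10%), and doublets and free RNA were not corrected for. Each cell went to the class of which it held the most of 8 markers, at least 2, or 3 for monocyte/macrophage. A further rule held for cells whose highest marker count, alone or tied, was that of monocyte/macrophage. Those with 2 or more dendritic cell markers and at most 1 of 4 core monocyte/macrophage markers went to dendritic cell. Other tied cells stayed unassigned. This scoring was revised after the cells had been seen, and its first form gave 1592 KO and 349 DKO monocyte/macrophage-like cells. Because UMIs tag 3′ ends, levels were not divided by gene length. Ratios had 0.5 counts added to each sum, with exact conditional, Poisson and Clopper-Pearson intervals (Python 3.11.15, scipy 1.17.1). The code was tested on simulated data. Alternatives used edgeR 4.0.16 (TMM factors) and Seurat 5.3.0. Every listed gene was accounted for, and among other lysosomal genes the 3 highest and 3 lowest ratios of DKO over KO were to be named, of which 1 is not reported here. The genes, lists and splits were chosen with earlier results of these data known.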

Additional observations from a re-analysis of the deposited data

Results flagged for a closer look

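In 7 instances a gene differed between DKO and KO by at least 1.5-fold in another cell class, in the direction opposite to that in monocyte/macrophage-like cells, with both intervals off 0. The share of all genes with such a reversal was not taken, so this number cannot be set against that of other genes. The difference between classes was not tested, since each genotype had 1 library. Cd63 had a log2 ratio of DKO over KO of 1.37 in dendritic cell-like cells, against −0.16 in monocyte/macrophage-like cells. Ctsb had −0.79 in neutrophil-like and −1.11 in T/NK-like cells, against 0.40. Ctss had −0.76 in T/NK-like cells, against 0.14. Cst3 had −0.72 in neutrophil-like, −0.82 in T/NK-like and −0.60 in B cell-like cells, against 0.16. The neutrophil-like values rest on 14 Ctsb UMIs and 70 Cst3 UMIs in DKO. Summed monocyte/macrophage markers in neutrophil-like cells were at 6489 CPM in KO against 9057 CPM in DKO. Their part in these differences was not tested.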

How the results depend on the processing

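No paired analysis was possible because each genotype had 1 library. For DKO against KO in monocyte/macrophage-like cells, the median log2 ratio of 0.18 was 0.063 with TMM factors, with 1 gene higher and 1 lower, and lay between 0.14 and 0.20 under the other alternatives. With 2-fold as the size counted, 0 genes were higher. The count of lower genes, 0, was 1 with a minimum of 20 or of 1 UMI (Atp6v0d2), 1 with classes from Seurat clusters, 1 with stages weighted as in KO and 1 without the top cell of each gene. For macrophage over monocyte stage, the count of higher genes lay between 14 and 19 in KO and between 8 and 12 in DKO, also without cells with an Arg1 UMI, an alternative added after the data were seen. For DKO against KO by stage without the top cell of each gene, also added after the data were seen, the count of lower genes was 1 in place of 0 in the monocyte and 3 in place of 1 in the macrophage stage, and the median in the intermediate stage was 0.20 in place of 0.41. No called ratio changed sign. The counts were low for Tfeb, Mitf and Mcoln1, with 36, 38 and 22 UMIs in the DKO class, which had 308 cells against 1480 in KO.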
